A study of Populus x canadensis with 4 samples.

Results

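miR472 is a plant microRNA family, and its sequences were picked from the deposited leaf table by name, as every entry with exactly this family number after miR or MIR, whatever its species prefix, arm or suffix. The rule found 4 distinct sequences, each in 1 row, among 529 sequences in 738 rows. They come from 2 hairpins, miR472a and miR472b, with 1 sequence from each arm, and all 4 carry the prefix for Populus trichocarpa. The leaves came from rooted cuttings of the hybrid poplar Populus × euramericana "Neva", grown in water culture to 90 days. The plants then spent 3 days in solution with 0, 2, 4 or 8 mM para-hydroxybenzoic acid (pHBA), a phenolic acid known to hold back plant growth. The 4 groups shared cultivar, tissue and time and differed in the pHBA dose, with 0 mM as the untreated group. RNA of plants on the same dose was pooled before sequencing, so each dose is 1 library, and how far plants of 1 dose differ cannot be seen. Reads assigned to the table came to 2640653, 4998878, 6369127 and 5310499 at 0, 2, 4 and 8 mM.

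MicroRNAs guide the silencing of messenger RNAs, and plant microRNAs usually pair with a target over most of their length. In Arabidopsis, miR472 acts on genes for resistance proteins with a nucleotide-binding site and leucine-rich repeats, the receptors that recognise effectors of pathogens inside the cell. It is related in sequence to miR482 and miR2118, and microRNAs of 22 nt can set off the production of secondary small RNAs from their targets, which spreads silencing within that gene class. A hairpin precursor gives a short duplex of both arms, of which usually one is kept and the other is lost.

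The abundant sequences of the 2 hairpins differ at a single base, and they are printed because all family reads but a trace belong to them. Their names state no arm. Since the other entries of the same hairpins are named p5, they are read here as the 3′ arm. Capitals mark the seed, bases 2 to 8 from the 5′ end, and T stands for U as in the deposited table.
ptc-miR472a: tTTTCCCTactccacccatccc
ptc-miR472b: tTTTCCCAactccacccatccc
Both are 22 nt long, begin with T and hold 54.5% G and C. The only change, T8A from miR472a to miR472b with positions counted from the 5′ end, falls on the last base of the seed, so the seeds are not the same. The 5′ arm sequences are 21 nt long, begin with G and are shown with the same capitals.
ptc-MIR472a-p5_1ss7TC: gGTGGGCGagcggggaagata
ptc-MIR472b-p5: gATGGGTGagtggggaagata
These differ at 3 positions (G2A, C7T and C11T, from miR472a to miR472b) and so are 85.7% identical, against 95.5% for the 3′ arms. The suffix 1ss7TC is read here as a base that differs from the listed precursor (T7C), and the deposited sequence does hold C there. A minimum-energy duplex of the arms, computed with RNAduplex, had 17 base pairs for miR472a, of which 3 were G:U, and 18 for miR472b, of which 1 was G:U. Base 8 of the 3′ arm was paired in the miR472a duplex and unpaired in that of miR472b. The predicted energies were -23.3 and -26.8 kcal per mol.

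Both 3′ arms were higher at every pHBA dose than at 0 mM, peaked at 4 mM, and were lower again at 8 mM. In order of dose, ptc-miR472a stood at 798946, 1211447, 1486719 and 1249876 normalized reads. ptc-miR472b stood at 454856, 840936, 1140347 and 922747. Normalized reads are the authors' values, the raw count times 1 factor per library. For both sequences the order of the libraries was 4, 8, 2 and 0 mM from high to low, and ptc-miR472a was above ptc-miR472b in each of the 4.

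ptc-miR472a was 1.52-fold higher at 2 mM than at 0 mM (exact 95% interval 1.51 to 1.52). At 4 mM it was 1.86-fold higher (1.86 to 1.87), and at 8 mM 1.56-fold (1.56 to 1.57). ptc-miR472b was 1.85-fold higher at 2 mM (1.84 to 1.86). At 4 mM it was 2.51-fold higher (2.498 to 2.52), and at 8 mM 2.03-fold (2.02 to 2.04). These intervals, like all others given here, cover counting error only and take reads as independent, which copies made in amplification are not. The intervals are narrow because of the depth and leave out the spread between plants. Comparisons with 0 mM share that library.

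The neighbours in the order of doses lay outside each other's counting error for both 3′ arms. From 2 to 4 mM the step was 1.23-fold for ptc-miR472a (1.22 to 1.23) and 1.36-fold for ptc-miR472b (1.35 to 1.36). The level at 8 mM was 0.841 of that at 4 mM for ptc-miR472a (0.839 to 0.843) and 0.809 for ptc-miR472b (0.807 to 0.811). The smallest gap was between 8 and 2 mM, where ptc-miR472a was 1.03-fold higher at 8 mM (1.03 to 1.03) and ptc-miR472b 1.10-fold (1.09 to 1.10).

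The 5′ arms were scarce and lower at every pHBA dose than at 0 mM. ptc-MIR472a-p5_1ss7TC stood at 1116, 403, 408 and 400.2 normalized reads in order of dose, from 823, 409, 490 and 449 reads. Its 3 treated libraries lay together, within counting error of each other, and all were below the untreated one. ptc-MIR472b-p5 stood at 193, 104, 92.4 and 45.5, from 142, 105, 111 and 51 reads. It was lowest at 8 mM, and its levels at 2 and 4 mM lay within counting error of each other (4 over 2 mM, 0.893, 0.678 to 1.18).

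**Figure D1:**
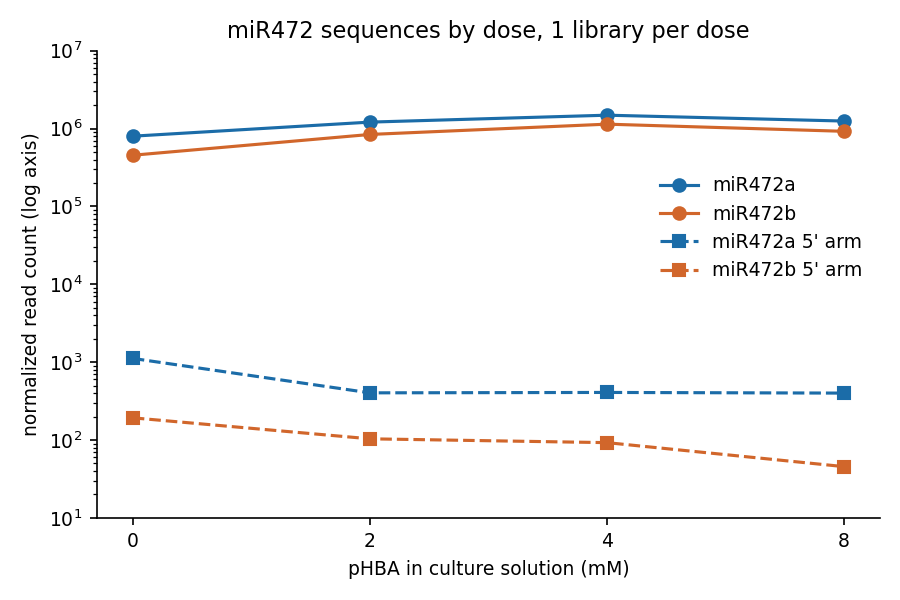
Normalized read count (log axis) of the 4 miR472 sequences against the pHBA dose in mM, drawn at equal spacing, 1 library per dose. The 3′ arms (circles) lie between 454856 and 1486719 and are higher in all treated libraries than at 0 mM, while the 5′ arms (squares) lie between 45.5 and 1116 and are lower.

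Against 0 mM, ptc-MIR472a-p5_1ss7TC was 2.77-fold lower at 2 mM (2.46 to 3.12). It was 2.74-fold lower at 4 mM (2.44 to 3.07), and 2.79-fold lower at 8 mM (2.48 to 3.14). ptc-MIR472b-p5 was 1.86-fold lower at 2 mM (1.44 to 2.42). It was 2.08-fold lower at 4 mM (1.61 to 2.70), and 4.24-fold lower at 8 mM (3.06 to 5.96). In each hairpin the 3′ arm was thus higher and the 5′ arm lower than at 0 mM at all doses. This held with each of the other scalings described in the processing, under which ptc-miR472a at 2 mM came closest to no difference, at 1.10-fold.

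All 4 sequences passed the filter, a mean of 10 or more normalized reads, among 350 sequences of the table that did. On log2(normalized read count + 1), 0 of the 4 were at least 2-fold higher at 2 mM, where 20.9% of all filtered sequences were, and 1 was at least 2-fold lower, where 23.7% were. At 4 mM, 1 of 4 (ptc-miR472b) was higher, against a background of 18.9%, and 2 (both 5′ arms) were lower, against 25.7%. At 8 mM the same split of 1 higher and 2 lower stood against 14.9% and 21.4%. The 2-fold excess of ptc-miR472b rests on the scaling, since with equal table totals it was 1.69-fold higher at 4 mM and 1.53-fold at 8 mM. With 4 members these shares cannot be set apart from the background. The median log2 ratio of the 4 members was -0.14, -0.08 and -0.42 at 2, 4 and 8 mM, beside 0.04, 0.03 and -0.02 over all filtered sequences. That median falls between the higher 3′ arms and the lower 5′ arms, so it describes no single member.

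The family held the most reads of the 120 named families in every library. miR472 made up 35.0%, 41.7%, 49.5% and 45.9% of the table's reads at 0, 2, 4 and 8 mM, with a Wilson 95% interval of 35.0 to 35.1 at 0 mM and of 49.5 to 49.6 at 4 mM. These shares sum the rows that list the same sequence. With 1 row per sequence they were 44.7%, 51.2%, 58.7% and 57.9%, so the handling of rows moves them far more than counting error. The family in second place was miR482 at 0 mM with 15.8%, miR1448 at 2 and 4 mM with 17.6% and 14.3%, and miR166, a regulator of class III homeodomain leucine zipper genes, at 8 mM with 16.03%. By single sequence, ptc-miR472a ranked 1 in all libraries, while ptc-miR472b ranked 4 at 0 mM, 3 at 2 mM and 2 at 4 and 8 mM. Of the reads of 22 nt, miR472 held 53.4%, 58.2%, 64.6% and 66.0% in order of dose.

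**Figure D2:**
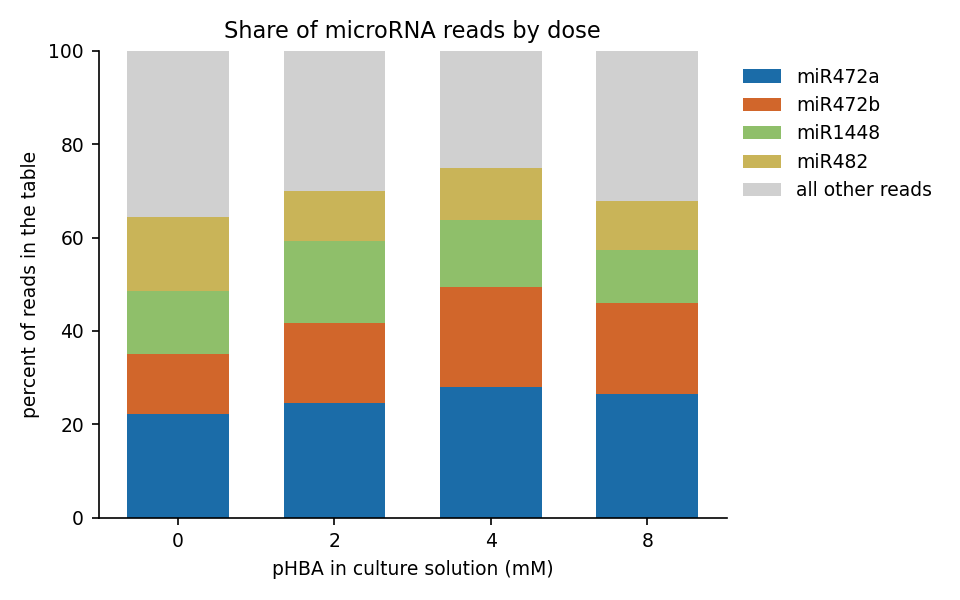
Share of the table's reads, in percent, taken by ptc-miR472a, ptc-miR472b, the miR1448 and miR482 totals and all other sequences, 1 bar per pHBA dose in mM. The 2 miR472 segments together reach 49.5% at 4 mM and are smallest at 0 mM, at 35.0%.

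By the authors' factors, much of the difference in the table's total between treated and untreated libraries lay in this one family. The table's normalized total was 4928275 at 2 mM, 5304574 at 4 mM and 4733312 at 8 mM, against 3581384 at 0 mM. miR472 accounted for 59.2%, 79.6% and 79.7% of the excess over 0 mM at 2, 4 and 8 mM. A rise shared evenly by all sequences would give it 35.0%, its share at 0 mM. The normalized total of everything outside the family was 1.24 times that of 0 mM at 2 mM, 1.15 times at 4 mM and 1.10 times at 8 mM. Both results rest on the authors' factors. With equal table totals there is no such excess by construction. The sum of all sequences outside the family is then lower in all treated libraries than at 0 mM, because the share of miR472 was higher. This need not hold for each family in that sum.

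The miR472 total was 2052890, 2627566 and 2173069 normalized read counts at 2, 4 and 8 mM, against 1255111 at 0 mM. The total was thus 1.64-fold higher at 2 mM (1.63 to 1.64). It was 2.09-fold higher at 4 mM (2.09 to 2.10), and 1.73-fold at 8 mM (1.73 to 1.74). The scaling sets the size. With libraries set to equal table totals the total was 1.19-fold, 1.41-fold and 1.31-fold higher, and the total of reads outside miR472 as the yardstick gave 1.32-fold, 1.82-fold and 1.57-fold. The library at 4 mM was the highest of the 4 under each of the 5 scalings.

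**Figure D3:**
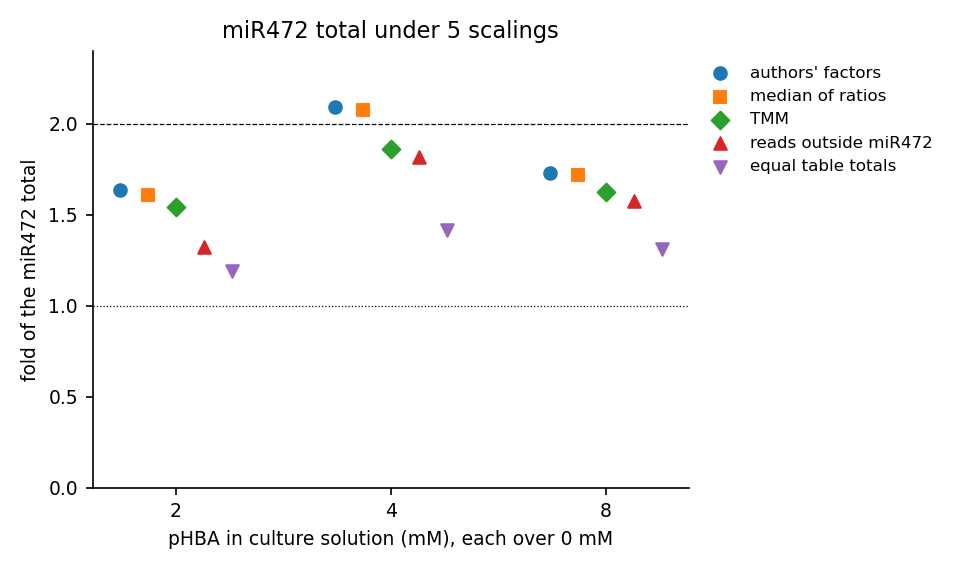
Fold of the miR472 total at 2, 4 and 8 mM pHBA over 0 mM under 5 scalings of the libraries, with dotted and dashed lines at 1-fold and 2-fold. All points lie above 1, and at 4 mM they spread from 1.41 to 2.09.

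The balance between the 3′ arms of the 2 hairpins differed between the libraries, and this comparison within a library does not depend on the scaling. ptc-miR472b made up 41.0% of the reads of both 3′ arms at 2 mM, 43.4% at 4 mM and 42.5% at 8 mM, against 36.3% at 0 mM. The Wilson intervals were 40.9 to 41.0, 43.4 to 43.5 and 42.4 to 42.5, against 36.2 to 36.4, and did not overlap. Its odds against ptc-miR472a were 1.22 times those at 0 mM at 2 mM (Woolf interval 1.21 to 1.23). At 4 mM they were 1.35 times those at 0 mM (1.34 to 1.35), and at 8 mM 1.30 times (1.29 to 1.30). A single base separates the sequences, how the counting treated reads with an error there is not stated, and its part in the balance was not tested. At 2 and 4 mM both raw counts end in 0.5, while their sum is whole. Between the 5′ arms the balance at 8 mM went the other way. ptc-MIR472b-p5 made up 20.4%, 18.5% and 10.2% of the reads of both 5′ arms at 2, 4 and 8 mM, against 14.7% at 0 mM. Its odds were 1.49 times those at 0 mM at 2 mM (1.13 to 1.97) and 1.31 times at 4 mM (0.99992 to 1.72), but 0.658 times at 8 mM (0.469 to 0.925).

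The share of the 5′ arm within a hairpin, which does not depend on the scaling either, was lower in all treated libraries. Of the reads of both miR472a arms, the 5′ arm held 0.140%, 0.0333%, 0.0274% and 0.0320% at 0, 2, 4 and 8 mM. The Wilson intervals ran 0.130 to 0.149, 0.0302 to 0.0367, 0.0251 to 0.03 and 0.0292 to 0.0351. For miR472b it held 0.0423%, 0.0123%, 0.00811% and 0.00493%, with intervals of 0.0359 to 0.0499, 0.0102 to 0.0149, 0.00673 to 0.00976 and 0.00375 to 0.00648. In neither hairpin did the interval of a treated library reach that of the untreated one. In miR472b the share was lower at each higher dose, with no overlap of the intervals, while in miR472a the intervals of 2 and 8 mM overlapped, and those of 4 and 8 mM as well.

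Expressed as odds against the 3′ arm, the 5′ arm of miR472a was 4.20-fold lower at 2 mM than at 0 mM (3.73 to 4.73). It was 5.09-fold lower at 4 mM (4.55 to 5.69), and 4.36-fold lower at 8 mM (3.89 to 4.90). That of miR472b was 3.44-fold lower at 2 mM (2.67 to 4.43). It was 5.22-fold lower at 4 mM (4.07 to 6.70), and 8.59-fold lower at 8 mM (6.24 to 11.8). At 8 mM there were 3123 reads of the 3′ arm for each read of the 5′ arm in miR472a, and 20299 in miR472b. At 0 mM these numbers were 716 and 2362.

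**Figure D4:**
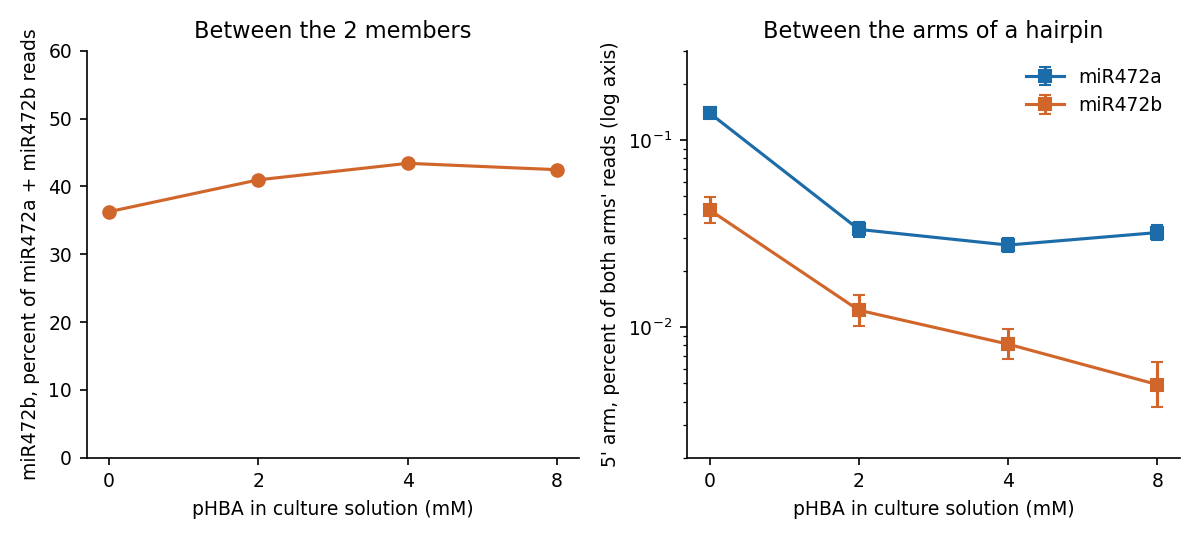
Left, ptc-miR472b as a percent of the reads of both 3′ arms by pHBA dose in mM. Right, the 5′ arm as a percent of the reads of both arms for each hairpin (log axis). Bars are Wilson 95% intervals for counting error, hidden by the points where narrow. The left line peaks at 43.4% at 4 mM, and both right lines are highest at 0 mM, at 0.140% and 0.0423%.

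A lower minor arm relative to the major arm was seen in other hairpins too. By name, 51 other hairpins had both arms in the table, with a mean of 100 or more normalized reads for the major arm and 10 or more for the minor arm. Each arm stands for its most abundant sequence only. A major sequence whose name states no arm was read as the arm opposite the named one, without a check of the hairpin. Among them are miR8175, miR5368, miR6300 and miR2916, whose families resemble transfer or ribosomal RNA. The hairpins of ptc-MIR171a and ptc-MIR171b have a major arm with equal values in every library. The measure is the log2 ratio of the minor arm to 0 mM minus that of the major arm. For the other hairpins its median was -0.31, -0.37 and -0.40 at 2, 4 and 8 mM. Of the 51, 17, 16 and 16 were at -1 or below, among them 10 at all doses. In the other direction, 8, 9 and 9 were at 1 or above, among them 6 at all doses. The values for miR472a were -2.07, -2.35 and -2.12 and for miR472b -1.78, -2.38 and -3.08. Both lay low in the range of the others at 2 mM (-3.41 to 3.98) and at 4 mM (-3.56 to 3.75). At 8 mM the lowest of the others was at -3.03, just above miR472b. By the authors' factors, in 11 of the 51, as in both miR472 hairpins, the major arm was higher and the minor arm lower than at 0 mM at all doses. Unlike the measure above, this count depends on the scaling, and for the 51 it was not repeated with other scalings.

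**Figure D5:**
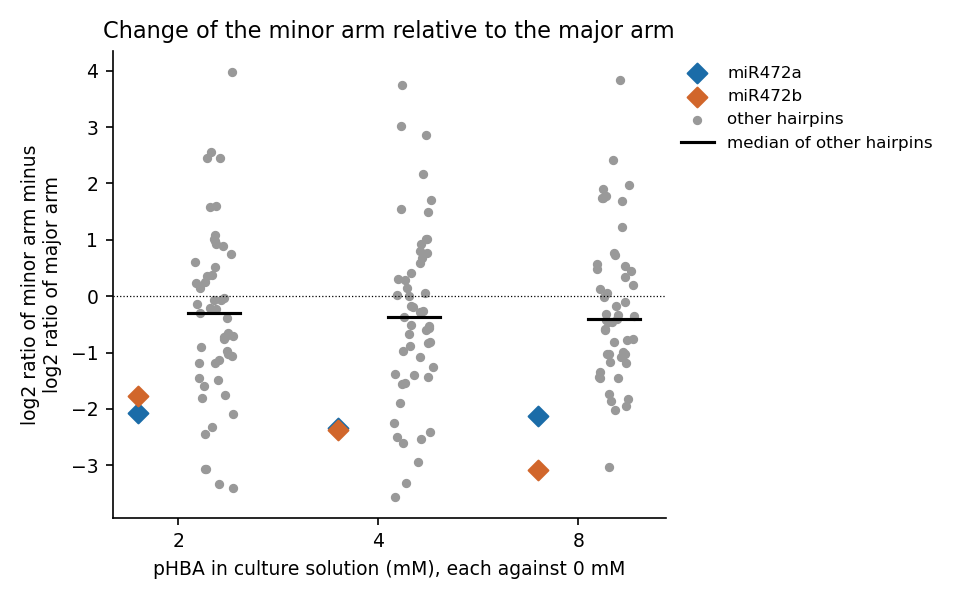
Log2 ratio of the minor arm minus that of the major arm, each against 0 mM, at 2, 4 and 8 mM pHBA. Diamonds are the 2 miR472 hairpins, grey points 51 other hairpins, and black lines their medians, between -0.31 and -0.40. The diamonds lie between -1.78 and -3.08, in the lower part of the grey range except for miR472b at 8 mM, just under the lowest grey point at -3.03.

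Relative to its very abundant major arm, the minor arm of miR472 held one of the smallest shares among the hairpins kept. Hairpins with a scarcer or unlisted minor arm were left out, so a very small share needs an abundant major arm. The ranks below thus reflect in part this filter and the abundance of miR472. Of the 53 hairpins, miR472b had the lowest share for its minor arm at 0, 2 and 8 mM and the second place at 4 mM, behind ptc-miR397a, whose minor arm was listed at 0. miR472a ranked 5, 2, 3 and 2 from the bottom in order of dose. The median share of the minor arm in the others was 4.73%, 3.06%, 3.40% and 3.89%. Among the related hairpins, that of ptc-miR482a was at -1.48, -2.25 and -2.02 on the same measure, and that of ptc-miR1448 at -0.72, -1.38 and -0.60. That of ptc-miR482b was at -1.60, -1.54 and -1.19, and that of ptc-miR482c at -0.65, -0.51 and -0.32. The hairpin of ptc-miR482d went the other way, at 1.02, 0.31 and 0.53.

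The other families set as a list for their link to resistance genes were miR482, miR1448, miR2118, miR1507, miR1510 and miR2109. The last 3 had no sequence among those analysed here. The most abundant related sequences are printed with capitals where the base equals that of ptc-miR472a at the same position.
ptc-miR482a.1_L+5: TcTTgCCTACTCCtCCCATtCC
ptc-miR482c-3p: TcTTtCCgAgTCCtCCCATaCC
ptc-miR1448_L+1R+1: TcTTtCCaACgCCtCCCATaCC
They match ptc-miR472a at 18, 16 and 16 of 22 positions and ptc-miR472b at 17, 16 and 17, and the bases CCCAT near the 3′ end are common to all.

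The totals of these relatives ran otherwise over the doses. The miR482 total stood at 565186, 525018, 584437 and 503387 normalized reads in order of dose, with all treated libraries within 1.12-fold of 0 mM by the authors' factors. As a share of the table's reads it was lower in all treated libraries, at 10.7%, 11.02% and 10.6%, against 15.8% at 0 mM, so the direction at 4 mM turns with the scaling. The miR1448 total stood at 488524, 869251, 759114 and 538089, and so peaked at 2 mM, not at 4 mM. Its share was 17.6%, 14.3% and 11.4% at 2, 4 and 8 mM, against 13.6% at 0 mM, which turns the direction at 8 mM. miR2118 was scarce, at 42.0, 22.7, 50.8 and 42.8. Of 16 sequences of the list that passed the filter, 1, 3 and 0 were at least 2-fold higher and 2, 1 and 1 at least 2-fold lower at 2, 4 and 8 mM, against 20.9%, 18.9% and 14.9% of all filtered sequences higher and 23.7%, 25.7% and 21.4% lower. Their median log2 ratios were 0.15, 0.16 and 0.06, beside 0.04, 0.03 and -0.02 over all filtered sequences. Of all reads in miR472 and these families, miR472 held 54.4% at 0 mM and 59.6%, 66.2% and 67.6% at 2, 4 and 8 mM.

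Within the list, ptc-miR482b-3p had the course closest to miR472. It stood at 4405, 7110, 10566 and 8508 normalized reads, with log2 ratios to 0 mM of 0.69, 1.26 and 0.95, against 0.71, 1.07 and 0.79 for the miR472 total. Its largest difference from that total was 0.20, and its name was picked after the values were seen.

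Likeness of course was measured over the 3 doses as the largest absolute difference between log2 ratios to 0 mM, so that a small value means a like course. Of 59 other families with a mean of 100 or more normalized reads, miR167 was nearest, with a largest difference of 0.03. miR167, which acts on auxin response factors, had log2 ratios of 0.74, 1.04 and 0.80 from 32425, 54206, 66787 and 56644 normalized read counts. Next came miR6445 at 0.27 and miR162, which acts on the Dicer gene DCL1, at 0.27. Of 177 single sequences, ptc-miR6445a was nearest at 0.12, followed by mtr-miR167b-5p_R+1_1 and mtr-miR167b-5p_R+1_2 at 0.15, whose values were equal in every library. All these courses share the same 4 libraries and factors, so they are a description of these libraries.

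The table lists no length variant of miR472 under its own name, although 6 sequences named miR482 lie within 4 edits of a 3′ arm. The nearest, 1 edit from ptc-miR472a, was ppe-miR482f_L+1_2ss6TC21TC at 6.78, 9.86, 15.8 and 8.91 normalized read counts. ppe-miR482f_2ss8TA20TC, 2 edits from ptc-miR472b, was at 6.78, 17.7, 15.8 and 9.80, and mes-miR482, 2 edits from ptc-miR472a, had 5 reads at 4 mM and was listed at 0 elsewhere. All 3 stayed under 20 reads in every library. The seed of ptc-miR472a was found in 1 other sequence, ptc-MIR395k-p5, and that of ptc-miR472b in 1 other, hbr-MIR2118-p5_2ss2GT20TC. In the authors' deposited table all 4 miR472 sequences stand among the 447 listed above a line for p of at most 0.05, from a test that the table does not name. That line takes in 84.5% of the 529 sequences, so nothing particular to miR472 can be read from it.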

How the data were processed

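Small RNA of leaves was sequenced in 4 libraries, 1 per dose, each from mixed RNA of plants on the same treatment, per the labels' protocols. The submitters' processing notes name bcl2fastq 1.8.4. The mapping and counting of reads, the build and the annotation are not described in these sources. The raw columns, per the file headers, hold estimated counts as the authors deposited them, some of them fractions. The normalized columns, as deposited, hold a signal on a linear scale that equals the raw value times 1.356, 0.986, 0.833 and 0.891 at 0, 2, 4 and 8 mM. It is not divided by length or set to a fixed total.

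Rows that list the same sequence were summed. Folds divide normalized values, and their exact 95% intervals are conditional binomial ones on raw counts, which were rounded first. Shares have Wilson intervals and odds of shares have Woolf intervals. Log2 ratios use a pseudocount of 1, and counts past 2-fold use sequences with a mean of at least 10. With 1 library per dose there was no test and no p-value. Taken as 3 reads, a 0 allows up to 4.07, 2.96, 2.50 and 2.67 normalized read counts. Every miR472 sequence was named, and other families came from the resistance list or the likeness rule. The members and lists were chosen with earlier results of these data known, and the comparison of hairpin arms was added after the values were seen. The calls and fold intervals were checked on simulated data that held counting error only. That check says nothing about the spread between plants or copies made in amplification. Alternatives were equal table totals, TMM (edgeR 4.0.16, counts rounded), median of ratios, the total outside miR472, 1 row per sequence, other filters, pseudocounts and member sets. Duplexes were computed with ViennaRNA 2.7.2, and the rest with Python 3.11.15 and scipy 1.17.1. Genome positions were not analysed here.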

Additional observations from a re-analysis of the deposited data

How the results depend on the processing

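The depth, over 2640653 reads per library, leaves little counting error on the 3′ arms, but the 5′ arm of miR472b rests on 51 to 142 reads, and no setting supplies the missing replicates. Leaving out a library was not possible with 1 per dose. No paired analysis was possible because each dose has 1 library. Of 60 values of single miR472 sequences under other scalings and row choices, 0 changed direction. Those with 1 row per sequence could not change, since each miR472 sequence is in 1 row. The median of ratios gave factors close to the authors' own, so it adds little. The miR472 total at 2, 4 and 8 mM over 0 mM was 1.19, 1.41 and 1.31 with equal table totals, 1.54, 1.86 and 1.63 with TMM, 1.61, 2.08 and 1.72 with the median of ratios, and 1.32, 1.82 and 1.57 with the total of reads outside miR472. Equal table totals shift the log2 ratio of every sequence by -0.46, -0.57 and -0.40 before the pseudocount, the total outside miR472 by -0.31, -0.20 and -0.14, and TMM by -0.09, -0.17 and -0.09, shifts that all sequences share. The number of miR472 sequences at least 2-fold lower at 2 mM was 2 with equal table totals and with the total outside miR472, against 1. That at least 2-fold higher at 4 mM was 0 with equal table totals, and at 8 mM it was 0 with equal table totals, TMM and the total outside miR472, against 1 at both doses. With a pseudocount of 10, 1 was at least 2-fold lower at 4 mM, against 2. With 1 row per sequence the share of miR472 was 44.7%, 51.2%, 58.7% and 57.9% at 0, 2, 4 and 8 mM, since repeated rows of other families then count once. Without the families that resemble transfer and ribosomal RNA it was 35.7%, 42.0%, 50.2% and 46.5%. The other settings left these results within their counting interval or within 1.5 times the count.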
